A study of Homo sapiens with 6 samples.

Results

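The genes of the cytosolic ribosomal proteins, which make the protein part of the ribosome outside mitochondria, were examined for peaks of acetylated NEIL1 (AcNEIL1). They were chosen by name: autosomal protein-coding genes called RPL or RPS with a number and an optional A, together with RPSA and RPLP0 to RPLP2. Ribosomal S6 kinases, paralogues whose symbols end in L, and pseudogenes were left out. The rule uses no measured value and took 73 of 18991 autosomal protein-coding genes, of which 40 encode proteins of the large subunit, 30 proteins of the small subunit and 3 the stalk. They are spread over 20 autosomes, and 12 of them lie on chromosome 19.

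The peaks came from chromatin immunoprecipitation and sequencing (ChIP-seq) with a custom rabbit antibody to AcNEIL1. The cells were HCT116, an established human colorectal carcinoma line, growing exponentially and given no agent. The series holds 3 AcNEIL1 ChIP libraries, replicates 1 to 3, each with a peak list called by the authors against the input chromatin library of the same number, and 3 such inputs. There was 1 condition, so ribosomal protein genes are set against the other 18918 genes within each replicate. Nothing in the labels says that the replicates were separate cultures, and their spread may be technical. The lists held 39898 to 60233 peaks from 28814429 to 35222701 ChIP tags. Replicate 2 had the fewest ChIP tags, the deepest input and the most peaks.

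NEIL1 cuts oxidised bases out of DNA as the first enzyme of base excision repair, and it is acetylated by p300. Ribosomal proteins assemble in the nucleolus with ribosomal RNA into a small subunit, which reads the mRNA, and a large subunit, which forms the peptide bond. A flexible stalk of acidic proteins on the large subunit recruits the elongation factors. In growing cells these genes are among the most strongly transcribed by RNA polymerase II. Their mRNAs start with a run of pyrimidines opening with C, the 5′ terminal oligopyrimidine (TOP) motif, through which mTOR and LARP1 control their translation. Many of the genes also carry small nucleolar RNAs (snoRNAs) in their introns.

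RefSeq promoters of GRCh38.p14, the build of the peak lists, were matched for 58 of the 73 genes and gave the strand and start used for positions. RPL5, RPL37, RPS20, RPL7, RPL30, RPL8, RPS2, RPS15A, RPL23A and RPL23 are among the 15 without a match. A TOP start, here C at the start followed by at least 4 pyrimidines on the sense strand, was found in 43 of the 58 promoters (74.1%), and in 6.22% of all 15101 promoters matched. A run opening a few bases after a listed start was not counted, so these counts depend on the annotated first base. The sequences below run from 60 bases before the first listed start to 30 bases from it onward, 5′ to 3′ on the gene's own strand, with the TOP run in capitals. Summit distances are to the nearest listed start, which for RPS19 and RPL13 is not the printed one but lies downstream of it. The first group holds genes in which peak summits lay just after the start in more than 1 replicate, with RPLP2 and RPL10A, which had one in replicate 1. The last 4 had none there in any replicate, and the letters of both kinds are shown because the TOP run was present on both sides of that divide. RPL32, with summits just after a start in replicates 1 and 3, is not printed and was counted as without a TOP run.
RPS19, chr19:41860195-41860284, plus strand: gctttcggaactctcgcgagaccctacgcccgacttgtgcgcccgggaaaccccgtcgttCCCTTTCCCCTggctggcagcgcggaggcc
RPL27A, chr11:8682732-8682821, plus strand: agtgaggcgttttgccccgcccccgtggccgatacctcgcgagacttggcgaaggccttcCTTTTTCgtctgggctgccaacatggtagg
RPL13, chr16:89560622-89560711, plus strand: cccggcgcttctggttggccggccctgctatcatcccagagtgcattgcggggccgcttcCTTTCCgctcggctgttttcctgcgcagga
RPL12, chr9:127451377-127451466, minus strand: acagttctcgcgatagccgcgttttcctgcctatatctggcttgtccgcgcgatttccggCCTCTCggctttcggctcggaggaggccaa
RPLP2, chr11:809907-809996, plus strand: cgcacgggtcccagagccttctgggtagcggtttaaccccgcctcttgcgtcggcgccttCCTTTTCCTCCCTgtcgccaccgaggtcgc
RPL10A, chr6:35468341-35468430, plus strand: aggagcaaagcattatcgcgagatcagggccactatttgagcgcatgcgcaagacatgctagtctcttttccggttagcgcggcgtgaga
RPSA, chr3:39406660-39406749, plus strand: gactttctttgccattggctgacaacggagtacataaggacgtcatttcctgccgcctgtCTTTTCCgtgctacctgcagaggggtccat
RPS6, chr9:19380207-19380296, minus strand: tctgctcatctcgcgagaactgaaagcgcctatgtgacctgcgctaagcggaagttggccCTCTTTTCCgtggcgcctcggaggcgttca
RPS3, chr11:75399458-75399547, plus strand: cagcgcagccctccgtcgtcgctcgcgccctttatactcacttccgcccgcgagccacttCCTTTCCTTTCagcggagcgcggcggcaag
RPLP0, chr12:120201082-120201171, minus strand: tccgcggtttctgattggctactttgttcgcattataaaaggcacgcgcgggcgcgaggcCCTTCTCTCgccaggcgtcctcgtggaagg

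AcNEIL1 peaks lay at or near ribosomal protein genes about as often as at other genes, with a different share in each library. A peak overlapped the gene or its 5 kb flanks, called the window here, at 35, 25 and 32 of the 73 genes in replicates 1, 2 and 3. Those are 47.9, 34.2 and 43.8% of the ribosomal protein genes, against 37.5, 44.1 and 40.0% of the other genes. Over all genes tested the shares were 37.5, 44.1 and 40%. Ribosomal protein genes stood above the rest in replicates 1 and 3 and below it in replicate 2. Their mean share was 42.0 ± 7.03% (SD, n = 3), against 40.5 ± 3.36% of the other genes. The difference of 1.46 ± 10.4 percentage points did not pass an exact two-sided sign-flip permutation test over the replicates (p = 0.75), in which 3 replicates can give no p below 0.25. Its sign changed under 8 of the 11 alternatives run, and without chromosome 19 it was -0.12.

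**Figure D1:**
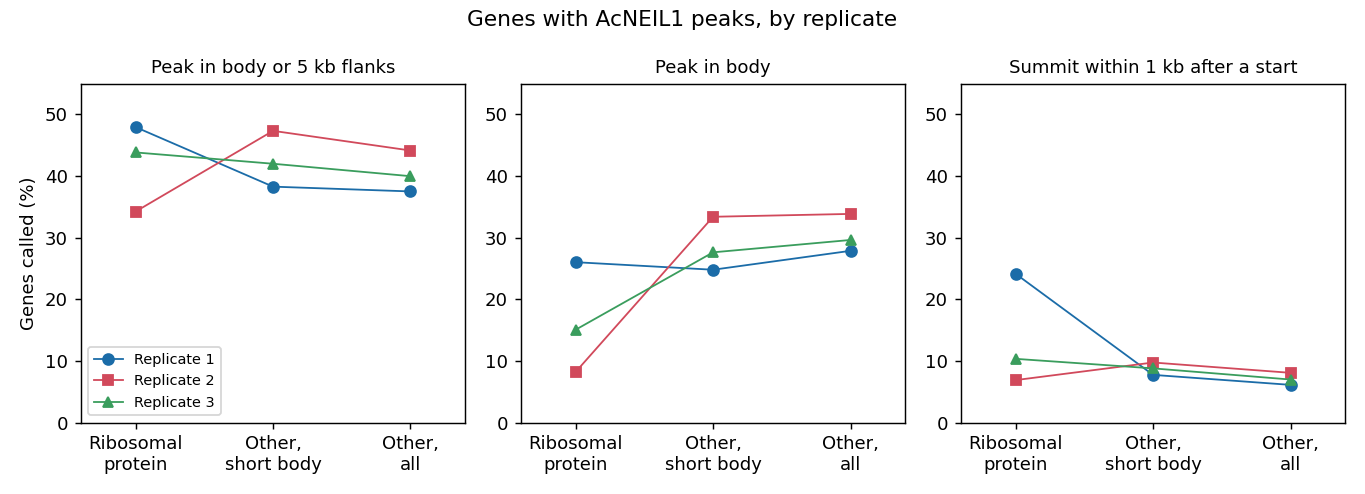
Share of genes (%) with an AcNEIL1 peak in the window, in the gene body, and with a summit within 1 kb after a start, for ribosomal protein genes, other protein-coding genes and other genes with a body no longer than the longest ribosomal protein gene (27723 bp). Points are the 3 replicates, and lines join the values of 1 replicate. For body peaks the ribosomal protein genes lie below all others in every replicate, and below the short ones in replicates 2 and 3, and after a start they lie far above them in replicate 1 only.

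Large-subunit genes had a window peak in 22, 16 and 22 of 40, small-subunit genes in 12, 9 and 10 of 30, and stalk genes in 1, 0 and 0 of 3, across replicates 1, 2 and 3. Large-subunit genes were thus marked in the larger share in each library, which was not tested. A window peak recurred in at least 2 replicates at 31 of the 73 genes (42.5%), where 39.8% of all genes had one. It recurred in all 3 replicates at 14 genes (19.2%), where 29.4% of all genes had one, and in at least 1 replicate at 47 (64.4%), against 52.5% of all genes. More ribosomal protein genes than genes at large were therefore marked once, and fewer in every library. No test was made of these counts.

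The 14 genes marked in every replicate included RPL13, RPL13A, RPL18, RPL19, RPL23, RPL23A, RPL27A, RPL3 and RPL31 of the large subunit and RPS14, RPS19 and RPS2 of the small subunit. Strength is given below as the authors' fold enrichment of the summit over the local background, always for the strongest window peak in replicates 1, 2 and 3, with the mean and SD over the 3. Most of these peaks stood in the flanks, and 8 of the 14 genes had no peak on the gene body in any replicate.

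RPL13, a large-subunit gene on chromosome 16 (89560657 to 89566829, hg38), had fold 3.89, 6.87 and 6.76, a mean of 5.84 ± 1.69. These came from a region downstream of its end, with summits 4475, 4537 and 4654 bp past the gene, where no other coding gene is annotated. Replicates 1 and 3 had an additional summit 424 and 572 bp after a start, with fold 3.25 and 2.69, and replicate 2 had none there.

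RPS19, the gene most often mutated in Diamond-Blackfan anaemia, an inherited failure of red cell production, lies on chromosome 19 (41860255 to 41872925). Its strongest window peak had fold 4.71, 5.33 and 5.59, a mean of 5.21 ± 0.454, and in each replicate its summit lay in the body of CD79A, a B-cell receptor component gene, 4634, 5525 and 5775 bp past RPS19. Separate summits stood 196, 258 and 78 bp after an RPS19 start, with fold 3.59, 2.27 and 4.17. These 3 peaks fell in 1 merged region and were weaker than the CD79A peaks in each.

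RPL27A, a large-subunit gene on chromosome 11 (8682792 to 8689872), had 1 window peak in each replicate and all 3 were inside the gene. The summits lay 575, 205 and 885 bp after the start, with fold 3.87, 2.675 and 2.87, a mean of 3.14 ± 0.641. In replicate 2 the summit was also within the body of TRIM66, a tripartite-motif protein gene that overlaps RPL27A. RPL27A and RPS19 were the only ribosomal protein genes with a summit within 1 kb after a start in every replicate.

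RPS14, whose loss on chromosome 5 underlies the anaemia of the 5q- syndrome, had fold 4.32, 5.02 and 4.20. The replicate 1 summit was 760 bp after the start, but those of replicates 2 and 3 were before it, at 3557 and 2522 bp. The strongest peak of replicate 2 overlapped a weaker one of replicate 3 (fold 3.83, 3293 bp before the start), and that of replicate 1 lay apart from both. RPL13A, which also takes part in silencing inflammatory mRNAs as a free protein, had fold 4.52, 3.97 and 5.19. The summits in replicates 1 and 3 were 3426 and 3270 bp past the gene. The strongest in replicate 2 was in FLT3LG, a cytokine gene upstream, and a weaker one (fold 3.44) stood 346 bp after the RPL13A start.

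RPL23A, whose protein lies at the exit of the peptide tunnel, had fold 4.18, 4.89 and 5.07, from summits in RAB34, a small GTPase gene next to it. RPL23, one of the ribosomal proteins that bind MDM2, had fold 5.12, 3.88 and 4.90, with summits 4863, 4838 and 4986 bp outside the gene. The 3 RPL23 summits fell within a stretch of a long non-coding RNA, LOC124903994.

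RPL3, which reaches toward the peptidyl transferase centre, had fold 3.69, 3.66 and 5.63. Its strongest summits in replicates 2 and 3 were 5062 and 5126 bp past the gene, and that of replicate 1 was 2512 bp past it. RPL18 had fold 3.94, 4.14 and 3.12, in FAM83E in each replicate, and RPS2 had 3.83, 3.65 and 3.46, in RNF151 in each replicate. Both windows were therefore marked over the same neighbour in all 3 libraries.
RPL31 had 3.65, 3.12 and 4.43, all before its start at 1587, 1863 and 2670 bp. RPL19 had 2.69, 3.20 and 3.98, all downstream, at 5229, 3706 and 5221 bp past its end. Neither RPL31 nor RPL19 had a peak on its own body.

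**Figure D2:**
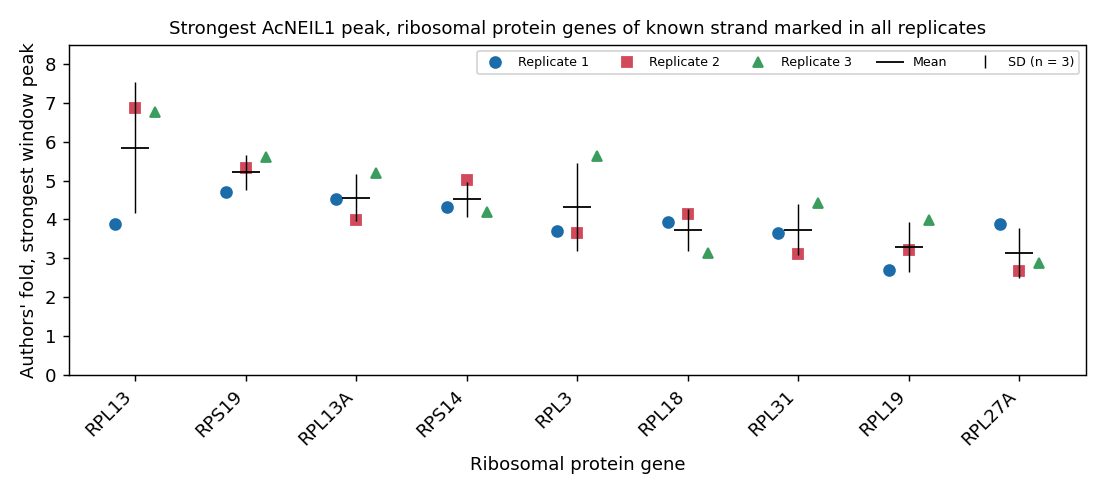
Authors' fold enrichment of the strongest window peak (vertical axis) for the 9 ribosomal protein genes of known strand that were marked in all 3 replicates. Points are replicates 1, 2 and 3, drawn side by side, and black bars are the mean and SD (n = 3). In some genes, RPS14 and RPL13A among them, the strongest peaks lie at different sites in the replicates. There the SD is not the spread of a single site. RPL13 in replicates 2 and 3 is highest at 6.87 and 6.76, and RPL27A in replicate 2 is lowest at 2.675.

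A further 17 genes had a window peak in exactly 2 replicates. Those in replicates 1 and 2 were RPL11, RPL24 and RPL29. Those in replicates 1 and 3 included RPL12, RPL22, RPL30, RPL32, RPL36 and RPS7, and those in replicates 2 and 3 were RPL26, RPL35A, RPL38, RPL6, RPS16 and RPS24. RPL11, which with RPL5 and 5S ribosomal RNA binds MDM2 and so stabilises p53, had summits 2785 and 2753 bp before its start in replicates 1 and 2 (fold 4.30 and 3.43).

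In exactly 1 replicate there were 16 genes. RPL10A, RPL28, RPL37A, RPL7A, RPLP2, RPS12, RPS23, RPS29 and RPS3A were among those marked in replicate 1 alone. RPS27A, which is made as a fusion with ubiquitin, and RPS3 were marked in replicate 2 alone, and RPL35, RPL37, RPL4 and RPL41 in replicate 3 alone. RPS3, a small-subunit protein that also has reported roles in DNA repair, had its summit 3581 bp before the start, with fold 3.27.

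No window peak passed the caller's cutoff in any replicate at 26 genes. They were RPL14, RPL15, RPL17, RPL21, RPL27, RPL34, RPL5, RPL7, RPL8, RPL9, RPLP0, RPLP1, RPS10, RPS13, RPS15, RPS15A, RPS18, RPS20, RPS21, RPS25, RPS26, RPS27, RPS28, RPS6, RPS9 and RPSA. The group includes RPS6, the substrate of the S6 kinases, RPSA, also known as the laminin receptor, and RPL5, the partner of RPL11. The stalk gene RPLP2 had a peak in replicate 1, while RPLP0 and RPLP1 had none. The lists carry no counts outside peaks, so these genes are known only to have no peak at this depth.

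On the gene bodies themselves, peaks were found at a smaller share of ribosomal protein genes than of all others in every replicate. A peak overlapped the body of 19, 6 and 11 of the 73 genes in replicates 1, 2 and 3, which is 26.0, 8.22 and 15.1%, against 27.9, 33.9 and 29.6% of the other genes. Over all genes tested the shares were 27.9, 33.8 and 29.6%. The gap was narrow in replicate 1 and wide in replicate 2. The mean difference was -14.0 ± 11.9 points (exact sign-flip permutation test, two-sided, p = 0.25, the smallest 3 replicates allow). Of the 9983 other genes no longer than the longest ribosomal protein gene (27723 bp), called short here, 24.8, 33.4 and 27.6% had a body peak. Against them ribosomal protein genes were slightly higher in replicate 1 and lower in replicates 2 and 3. A body peak was found in at least 1 replicate at 25 ribosomal protein genes, where 40.3% of all genes had one. Body peaks recurred in at least 2 replicates at 9 ribosomal protein genes, where 29.3% of all genes had them, and in all 3 at 2, where 21.5% of all genes had them.

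Ribosomal protein genes had a median body of 4799 bp, against 24959 bp in all other genes and 9593 bp in the short ones, which share only the upper limit of length. The part of length in the body peak shares was not tested beyond that limit. Counted by summits per Mb of window, ribosomal protein genes had 42.8, 30.2 and 35.2, against 20.7, 31.4 and 26.1 for the other genes. The log2 ratio was 1.05, -0.06 and 0.43, a mean of 0.47 ± 0.55 (exact sign-flip permutation test, p = 0.5). The short other genes had 53.0, 78.5 and 67.2 summits per Mb, higher in every replicate. Against them the mean log2 ratio was -0.87 ± 0.54 (exact permutation p = 0.25), so the sign depends on which genes are compared.

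Within the bodies, most summits of ribosomal protein genes stood just after the start. For the 58 genes with a known strand, a summit lay within 1 kb after a start at 14, 4 and 6 genes in replicates 1, 2 and 3 (24.1, 6.90 and 10.3%), against 6.12, 8.08 and 6.99% of the other genes. Over all 15101 genes with a known strand the shares were 6.19, 8.07 and 7%. Replicate 1 stood far above the rest, replicate 3 above it, and replicate 2 below it. The mean difference was 6.73 ± 10.0 points (exact sign-flip permutation test, p = 0.5), and without replicate 1 it was 1.09. This distance was chosen after the summits had been seen.

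Among the genes with such summits, RPL12 at the base of the stalk, RPL13 and RPL32 had them in replicates 1 and 3. RPL12 had its summit 431 and 838 bp after the start, with fold 2.86 and 3.23. RPL32 had it at 434 and 446 bp, with fold 4.28 and 3.97. In replicate 2 neither had a window peak.
Replicate 1 alone gave 9 more, RPL10A, RPL22, RPL29, RPL7A, RPLP2, RPS14, RPS23, RPS3A and RPS7, at 101 to 760 bp. RPL10A was the strongest of them, with fold 4.77 at 329 bp. It was counted as without a TOP run because its listed first base is A, although its printed letters show a pyrimidine run shortly after that base. RPLP2 of the stalk had fold 3.87 at 312 bp, and RPS23, a protein of the decoding centre, had fold 4.32 at 101 bp.
RPL13A and RPS27A had such summits in replicate 2 alone, and RPL4 in replicate 3 alone, while 41 of the 58 genes had none. In all, 17 of the 58 genes had one in at least 1 replicate, 5 in at least 2 and 2 in all 3, where the shares over all genes were 13.5, 5.79 and 1.95%. The median distance was 427.5, 302 and 509 bp, and the median fold 3.87, 3.06 and 3.48 in the 3 replicates. At the stricter cutoff of −log10 q of 5 or more, 7, 0 and 1 genes were left, 12.1, 0 and 1.72%, against 2.55, 4.23 and 2.59% of the other genes.

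**Figure D3:**
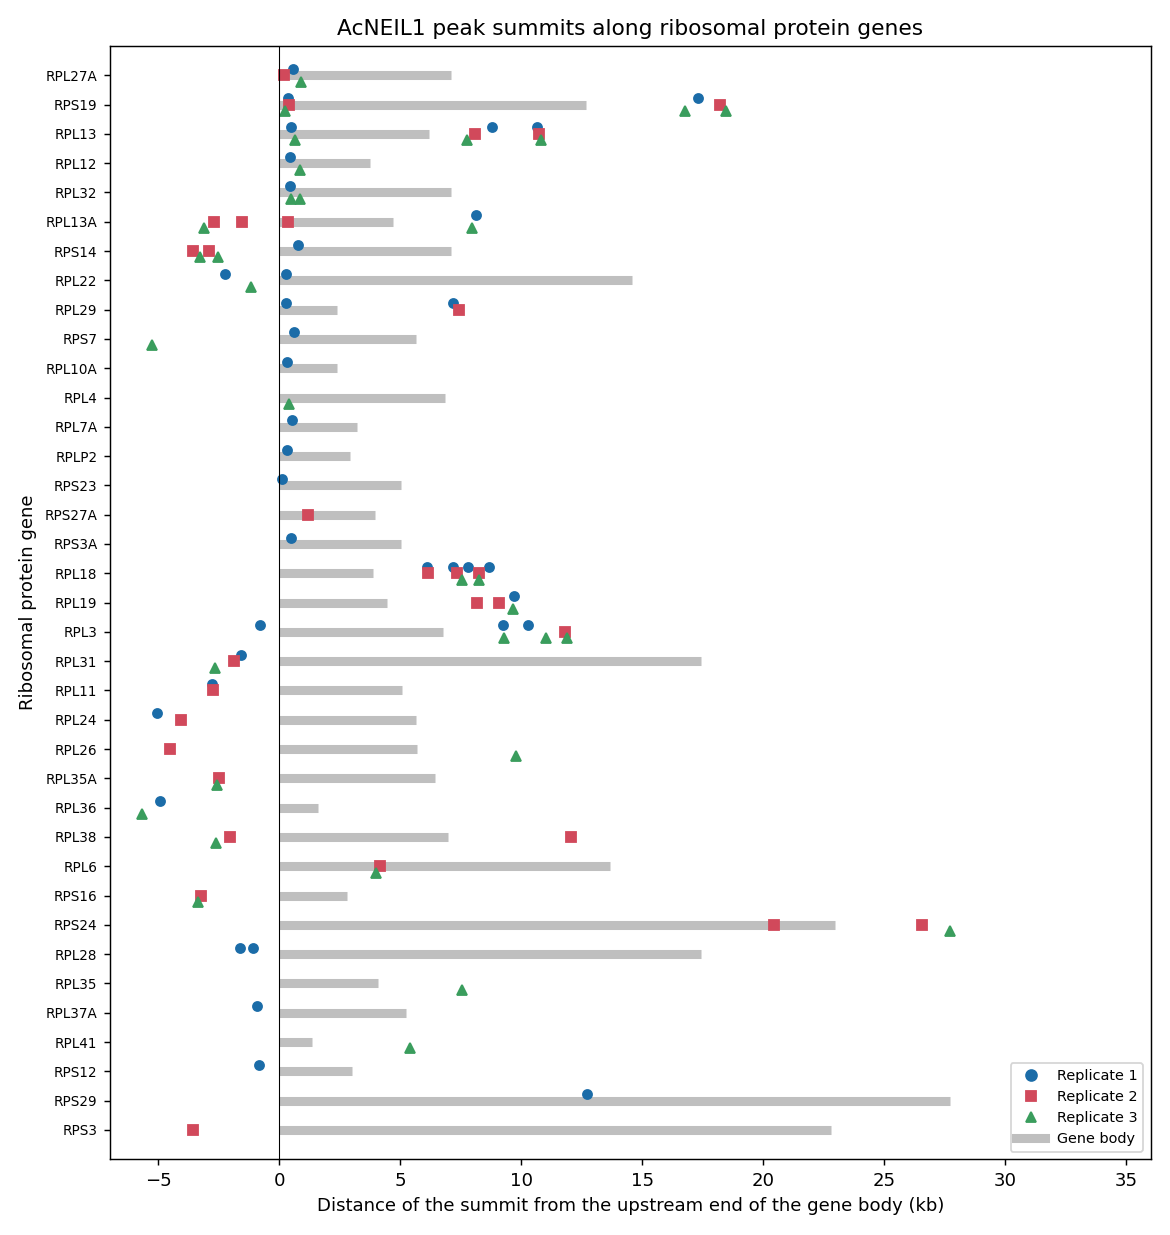
Position of AcNEIL1 summits, in kb from the upstream end of the annotated gene body, in the 37 ribosomal protein genes with a known strand and a window peak. Bars are gene bodies, and points are summits of replicates 1, 2 and 3. Summits stand in the flanks and near the upstream end of the bodies. Deeper in a body are only those of RPL6 in replicates 2 and 3, RPS29 in replicate 1 and RPS24 in replicate 2.

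On the other side of the start, summits within 1 kb before it were found at 3, 0 and 1 ribosomal protein genes, against 4.40, 6.04 and 5.16% of the other genes (4.4, 6.02 and 5.15% over all genes). In bins of 0.5 kb, the first bin after the start had 10, 4 and 3 summits, which is 17.2, 6.90 and 5.17 per 100 genes, against 3.43, 4.71 and 4.19 per 100 other genes. The next bin had 4, 0 and 3 summits, and from 1 kb to 5 kb there were none in any replicate. The other genes held 1.99 to 4.13 summits per 100 genes in each of those later bins, and their bodies are longer.

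**Figure D4:**
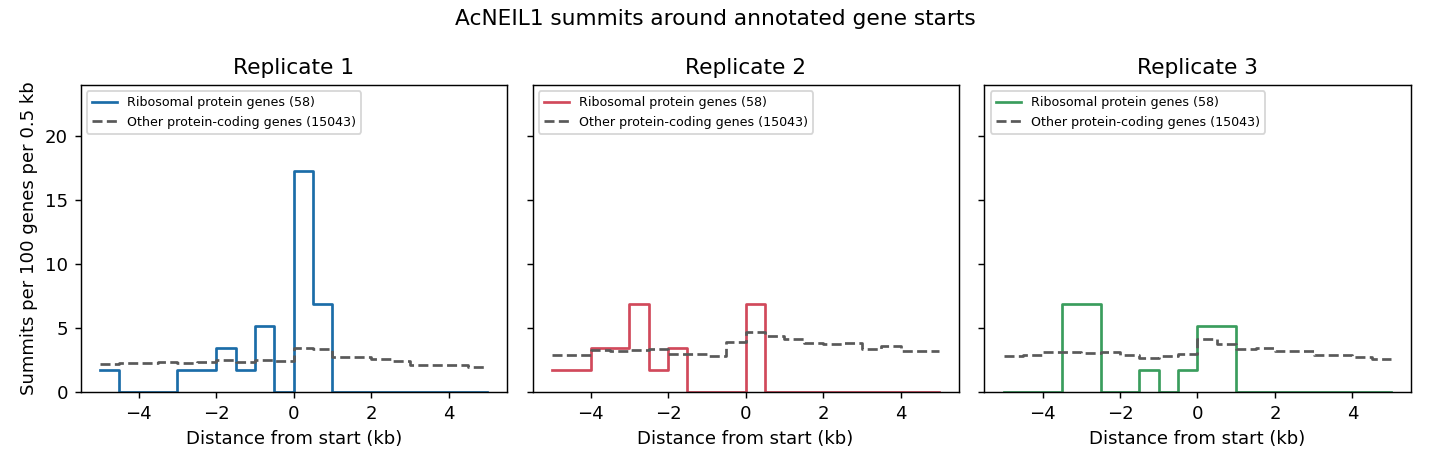
AcNEIL1 summits per 100 genes in bins of 0.5 kb from 5 kb before to 5 kb after the start, in each replicate. Coloured lines are the 58 ribosomal protein genes with a known strand, and dashed grey lines the 15043 other genes. The ribosomal protein genes peak in the first bin in replicate 1 at 17.2 and have no summit beyond 1 kb.

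With each body cut into 3 equal parts, the first part held 14, 5 and 8 of the body summits in replicates 1, 2 and 3. In the middle and last parts together, 1, 1 and 0 summits fell in 0.258 Mb, or 3.88, 3.88 and 0 per Mb, where 3 counts correspond to 11.6 per Mb. The other genes had 17.4, 27.5 and 21.8 per Mb there, and the short ones had 48.9, 78.9 and 61.9. The difference from all others was -19.6 ± 5.40 per Mb, and from the short ones -60.7 ± 15.0, the same sign in all 3 replicates (exact sign-flip permutation test, p = 0.25 for each, the smallest possible). The 2 summits were in RPS29, in the middle of its body in replicate 1, and in RPS24, a Diamond-Blackfan anaemia gene, near the end in replicate 2. In the first part, ribosomal protein genes had 109, 38.8 and 62.1 summits per Mb, against 56.7, 80.2 and 70.8 in the short other genes. This split of the body was also chosen after the summits had been seen.

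**Figure D5:**
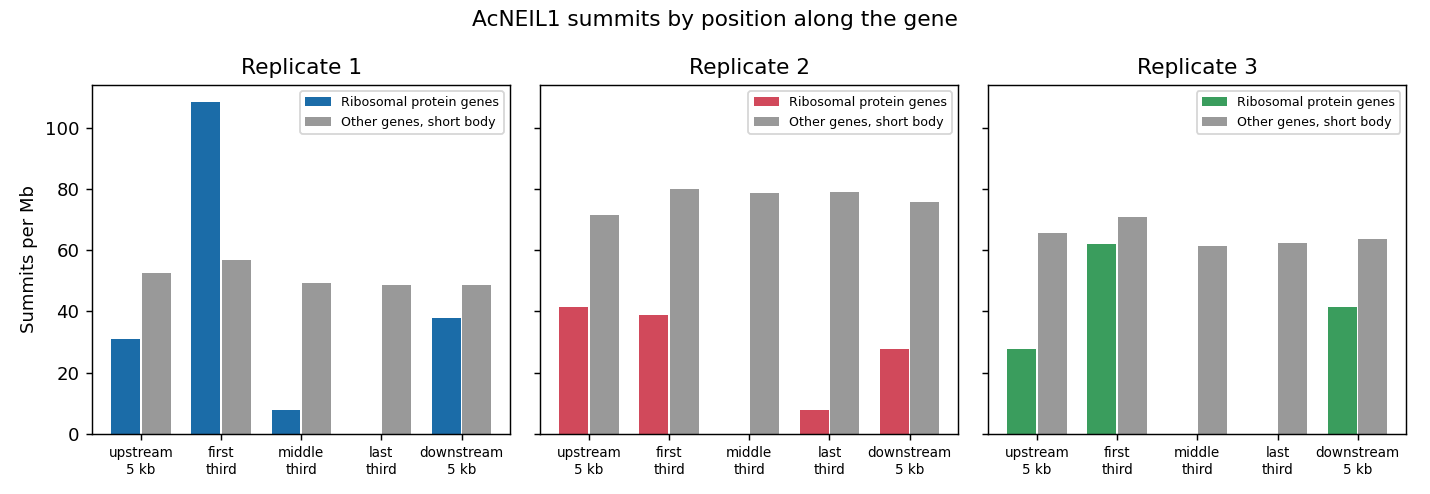
AcNEIL1 summits per Mb in 5 position classes, from the upstream flank through the 3 equal parts of the gene body to the downstream flank, for ribosomal protein genes and other genes no longer than the longest of them (27723 bp). Bars are the values of each replicate in its own panel. In the ribosomal protein genes the middle and last parts are at or near 0, and the first part is highest in replicate 1 at 109.

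Before the start, the stretch from 2.5 to 3.5 kb held 1, 6 and 8 summits over its 2 bins in replicates 1, 2 and 3. They were at RPS14, RPL13A, RPL31 and RPL11 among others, and replicate 1, which led after the start, was lowest there. They amount to 1.72, 10.3 and 13.8 per 100 ribosomal protein genes, against 4.69, 6.52 and 6.27 per 100 other genes. This stretch was picked from the upstream bins after the summits had been seen. Those of RPL6 in replicates 2 and 3, at -3243 and -3420 bp from the listed start, lay within its annotated body, which begins further upstream. Of the summits in the windows of the 58 genes, 48.6, 15.4 and 25.0% lay within 1 kb of a start on either side, a mean of 29.7 ± 17.1% (SD, n = 3). That zone is 12.5% of the windows' length. In the other genes the shares were 8.20, 7.38 and 7.65%, in a zone of 3.17% of the length.

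A part of the window peaks had its summit over neighbouring genes. Of the 55, 40 and 48 peaks in the windows, 15 in each replicate had their summit inside another coding gene, which is 27.3, 37.5 and 31.3%, including the replicate 2 summit that lay in both RPL27A and TRIM66. That share of peaks was not computed for the windows of other genes, so whether it is unusual is not known. Another coding gene reached into the window of 55 of the 73 ribosomal protein genes (75.3%), and of 55.4% of the other genes. CD79A beside RPS19, FAM83E beside RPL18, RAB34 beside RPL23A and RNF151 beside RPS2 held summits in all 3 replicates. ACY1 beside RPL29, TTYH2 beside RPL38, WDR38 beside RPL35 and HSD11B1L beside RPL36 did so in some.

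Peaks of the 3 lists that overlapped by at least 1 bp were merged, and 88 merged regions touched a ribosomal protein window. A single replicate gave 53 of them, 2 replicates gave 20 and all 3 gave 15, or 17.0%, against 14.2% of the 58532 regions that touched windows of other protein-coding genes. Replicates 1, 2 and 3 gave 24, 15 and 14 regions of their own, against 7813, 20528 and 10813 in the windows of other protein-coding genes. Replicate 1 contributed the most private regions at ribosomal protein genes and the fewest at the other genes. Of the 15 shared regions, 2 lay over the gene itself, those of RPL27A (chromosome 11, 8682877 to 8683905) and RPS19 (chromosome 19, 41860335 to 41861163). The same count was not made for the regions at other genes.

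Peak strength at ribosomal protein genes was close to or below that elsewhere. The strongest window peak had a median fold of 3.87, 3.77 and 3.97 over the marked ribosomal protein genes, against 3.89, 4.10 and 4.20 over the other marked genes. The means were 3.87 ± 0.0980 and 4.06 ± 0.158 (SD, n = 3).

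Related gene sets are described by their counts, to be read beside the shares of all genes given above. Genes of mitochondrial ribosomal proteins, which serve the separate ribosome of that organelle, had a window peak in 16, 25 and 20 of 77, and a summit after a start in 1, 0 and 0 of 69. Proteasome subunit genes, another large housekeeping complex, had a window peak in 5, 9 and 6 of 38 and a summit after a start in 0, 1 and 1 of 33. Complex I genes of the respiratory chain had window peaks in 13, 13 and 13 of 34 and no summit after a start in 29. In replicates 1 and 3 these 3 sets had lower shares than the ribosomal protein genes. In replicate 2 complex I genes had the higher share of window peaks, 38.2 against 34.2%, and mitochondrial ribosomal protein genes were close at 32.5%. The differences between sets were not tested.
Translation initiation factor genes had window peaks in 18, 19 and 19 of 53 and a summit after a start in 3, 0 and 1 of 44, which in replicate 1 is 6.82%. Other genes with TOP mRNAs (NACA, NAP1L1, NPM1, PABPC1, RACK1 and TPT1) had window peaks in 2, 2 and 1 of 6, and a summit after a start in 1, 0 and 0 of 5, in NACA. Elongation factor genes had window peaks in 3, 2 and 3 of 5 and no summit after a start. Of these, EEF1A1, itself a TOP gene, had fold 6.03, 3.00 and 3.55, while EEF1B2 and EEF2 had no window peak in any replicate. Paralogues with the suffix L had window peaks in 2, 2 and 1 of 8, and a summit after a start in 1, 0 and 0 of 6.

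The TOP run was about as frequent in genes with a summit after the start as in those without. It was present in 13 of 17 genes with such a summit in any replicate (76.5%) and in 30 of 41 without (73.2%). CCGGAAG, on either strand, was in 8 of 17 genes with a summit (47.1%) and 12 of 41 without (29.3%). It was in 34.5% of all 58 and 16.7% of all 15101 promoters of the same length (250 bases before to 50 after the start). Searched likewise on both strands, GGGCGG was in 55.2% of the 58 and 64.6% of all, ATGGCGG in 22.4 and 9.10%, and TATAAA in 8.62 and 12.5%. Split by summit, GGGCGG was in 11 of 17 with and 21 of 41 without. ATGGCGG was in 4 of 17 and 9 of 41, and TATAAA in 1 of 17 and 4 of 41. The gap for CCGGAAG was the widest among the motifs searched. Median GC content was 59.3% in the 58 and 62.4% in all. These are matches of letters and were not tested against the peaks.

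Peaks over the snoRNAs inside the genes were counted, without a share for other features of that size. Of 58 snoRNAs in 27 host genes, peaks overlapped 2, 0 and 2, among them SNORD42B in RPL23A in replicates 1 and 3 and SNORD68 in RPL13 in replicate 3. Host genes had a body peak in 11, 2 and 9 of 27, and the ribosomal protein genes without a snoRNA in 8, 4 and 2 of 46. Those are 40.7, 7.41 and 33.3% of hosts and 17.4, 8.70 and 4.35% of the others, where all genes had 27.9, 33.8 and 29.6%. Hosts lay above the share of all genes in replicates 1 and 3 and below it in replicate 2, and the difference from genes without a snoRNA was not tested.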

How the data were processed

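AcNEIL1 ChIP-seq peaks of HCT116 cells were analysed in 3 replicates. The authors deposited 1 peak list per ChIP library, called, per the file headers, against the input of the same number with MACS 2.1.1.20160309 at q 0.05 and at most 2 tags per position, without pooling. The submitters' processing notes also name Bowtie2, SAMtools, bedtools, cutadapt, Trim Galore and FastQC. How reads with several matches were treated is not given in the sources used here. Per the file headers, the deposited signal is the pileup in tags at the summit. The deposited −log10 values are of the caller's p-value and q-value, and the deposited fold enrichment is a ratio to the local background. Fold enrichments are the authors' own and only describe or rank peaks within a list. Their means and SDs over the replicates are descriptive.

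Depth was 31921768, 28814429 and 35222701 ChIP tags and 32877739, 37772127 and 33606858 input tags in replicates 1, 2 and 3. Genes came from RefSeq GRCh38.p14, the hg38 build of the peaks. Genes on scaffolds or unplaced (659) were dropped. A gene was marked where a peak overlapped its body or 5 kb flanks by at least 1 bp. Starts and strands came from the RefSeq promoter table, and distances are to the nearest listed start, of which 9 of the genes have more than 1. Differences between ribosomal protein genes and others were tested over replicates by an exact two-sided sign-flip permutation test, computed over all sign changes with numpy 2.4.6. The counting of peaks was checked on planted peaks, and the test on fixed values with known answers. A count of 0 was given a limit of 3 counts, which covers counting error only. Genes marked in all 3 replicates are named with values, the rest by class (a few genes are counted but not reported by name here), and 8 genes (RPSA, RPLP0, RPLP1, RPLP2, RPS3, RPS6, RPL5 and RPL11) whatever their values. The genes, lists and rules were chosen with earlier results of these data known. The alternatives tried were stricter peaks, lists of equal size, 2 kb and 10 kb flanks, summits in place of overlap, leaving out each replicate or chromosome 19, genes no longer than the longest ribosomal protein gene, and peaks outside other coding genes.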

Additional observations from a re-analysis of the deposited data

How the results depend on the processing

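The difference in window peaks was 1.46 points. It turned to -5.05 with peaks of −log10 q of 5 or more, -1.47 with equal numbers of peaks (39898 each), -10.9 with 2 kb flanks, -1.28 with summits in place of overlap, -0.12 without chromosome 19, -0.53 against genes no longer than the longest ribosomal protein gene and -1.36 outside other coding genes; leaving out a replicate gave -3.02 to 7.14, the lowest without replicate 1. With 10 kb flanks it was 8.67. The 31 genes marked in at least 2 replicates became 10 with stricter peaks and 13 with 2 kb flanks, and 17 to 22 were marked in both replicates left when 1 was dropped. The 14 marked in all 3 became 6, 5, 30 and 9 with stricter peaks, 2 kb flanks, 10 kb flanks and outside other coding genes, and 17 to 22 with a replicate left out. For both counts, the shares of all genes were not computed under these settings. Whether the contrast with all genes holds there is therefore not known. The log2 ratio of summit density, 0.47, was -0.16 with 2 kb flanks and -0.87 against those shorter genes, and 0.19 to 0.74 with a replicate left out; it could not be formed outside other coding genes. The share of summits near the start, 29.7%, was 65.1% with 2 kb and 12.1% with 10 kb flanks. The fold of the strongest peak, 3.87, was 4.50 with stricter peaks, 3.99 with equal numbers, 3.69 with 2 kb flanks, 4.12 with 10 kb flanks, 3.75 with summits and 3.74 without chromosome 19. The cause was not tested. The mean differences for body peaks and for summits in the body past its first part stayed negative under the 9 and 7 alternatives run. The body difference of -14.0 points was -8.21 without replicate 2, and the other, -19.6 per Mb, was -6.24 with stricter peaks and -60.7 against the shorter genes. The mean difference for summits after a start stayed positive under the 10 run, all chosen after seeing the data. It was 1.09 points without replicate 1, 1.48 with stricter peaks and 2.99 within 2 kb. With stricter peaks, only replicate 1 stood above the other genes (12.1 against 2.55%). Replicates 2 and 3 stood below them (0 against 4.23% and 1.72 against 2.59%).

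No paired analysis was possible because pairing ChIP with input libraries, which share the replicate numbers, would need peak lists of the inputs; the differences above were taken within each replicate. A gene without a peak is one where none passed the cutoff at this depth.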

Other observations

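Pseudogenes of ribosomal proteins, taken by name and gene type, rarely carried a peak. Of 1892 on the autosomes, 1.32, 1.37 and 1.37% had a peak on the body in replicates 1, 2 and 3, against 3.43, 6.09 and 4.00% of 13702 other pseudogenes. With 5 kb flanks the shares were 7.14, 9.30 and 8.19%, against 9.37, 13.3 and 10.1%. Their median length was 536 bp against 754 bp. Reads that match both a gene and its pseudogenes could be dropped or split at either, and their part in the results was not tested. Ribosomal protein genes outside the rule, RPL10, RPL36A, RPL39 and RPS4X on the X chromosome and the fusion gene FAU, had no window peak in any replicate. No share was computed over all genes of the X chromosome, so their lack of peaks cannot be read as a trait of these genes.

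The 15 genes without a strand had 17, 10 and 15 summits in their windows in replicates 1, 2 and 3. A body summit lay within 1 kb of either end in 4, 0 and 4 of them, among which were RPL37 in replicate 3 and RPL23A and RPL30 in replicates 1 and 3. These were all of the 15 genes that had a body summit in those replicates. No share of other genes was computed, so the counts say nothing on position.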
